A study of Homo sapiens with 10 samples.

Results

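Thioredoxin interacting protein (TXNIP), the alpha-arrestins ARRDC1, ARRDC2, ARRDC3 and ARRDC4, the glucose-sensing transcription factors MLXIP and MLXIPL, and thioredoxin (TXN) were followed across CRISPR interference libraries of Caco-2 cells. These 8 genes, of 60554 listed, were taken by their symbols, and the set was chosen by readouts of these same libraries. Their differences between guides are therefore given as a description, with no p-value printed. Whether a member met the call rule, which uses an adjusted p, is likewise a description and lends no support. Caco-2 is a colon carcinoma line that takes on features of enterocytes. All 10 libraries came from 1 monoclonal line that stably carried dCas9-KRAB, a catalytically dead Cas9 fused to a transcriptional repressor, and that was grown as monolayers. The 5 gCtl libraries carried the guide plasmid without a guide, and the 3 libraries labelled g1 and the 2 labelled g2 carried different guides against the long noncoding RNA LHFPL3-AS2. Because every group shares a single clone, a response particular to that clone cannot be told apart from a response of Caco-2 cells. The labels do not say whether libraries of one group were separate cultures, and p-values then measure only the spread between these libraries.

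Estimated counts per library ranged from 3838803 to 8730468, and the mitochondrially encoded genes took 18.27% to 23.97% of them in gCtl, 19.0% to 20.6% in g1 and 12.0% to 16.8% in g2. LHFPL3-AS2 itself held 168 counts over all libraries and stood at 0.841 to 3.73 reads per 1000000 (RPM) in gCtl, 2.03 to 3.95 in the libraries labelled g1 and 2.16 to 6.01 in those labelled g2. At these few counts, which were not tested, the RNA that the guides target was thus not seen to be lower in the libraries that carry them. By qPCR the authors found it reduced with both guides against gCtl. Every direction below is one between libraries labelled g1, g2 and gCtl. All 11 markers of Caco-2 epithelium were detected, and their summed level was 2140 to 2900 RPM in gCtl, 2020 to 2520 in g1 and 2170 to 2190 in g2. In counts per 1000000 (CPM), EPCAM averaged 724 in gCtl, 831 in g1 and 822 in g2, whereas KRT18 averaged 490, 379 and 284, KRT19 319, 218 and 262, KRT8 226, 147 and 187, and CDH1 141, 118 and 104. In the same order, VIL1 averaged 148, 162 and 178, CDX2 45, 61.2 and 52.9, APOA1 435, 397 and 439, and FABP1 16, 8.84 and 26.3. SI and ALPI were near the floor, with 58 and 20 counts over all libraries and 0 in some. The part of these shifts in the results below was not tested. Summed markers of leukocytes reached 11.2 to 29.4 RPM, those of fibroblasts 4.49 to 10.8 and those of endothelium 2.15 to 10.1. In bulk RNA, fewer cells of a kind and less RNA per cell cannot be told apart.

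TXNIP is an alpha-arrestin that binds reduced thioredoxin and takes part in the removal of glucose transporters from the cell surface. Its gene is a classic target of MLXIP (MondoA) and MLXIPL (ChREBP), which sense sugar phosphates and bind carbohydrate response elements as dimers with MLX. The other alpha-arrestins share the arrestin fold and recruit ubiquitin ligases of the NEDD4 family to membrane proteins, and ARRDC4 is the closest relative of TXNIP and is also induced by glucose. This circuit is known as a brake on glucose uptake. Its action in enterocytes, which take up dietary sugar, was not tested here.

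The promoters are shown for TXNIP and ARRDC4, the 2 of 8 members whose levels did not overlap between gCtl and the 5 guide libraries. Of all genes tested, 15.4% did not overlap in this way, and nothing is read from the count. RefSeq windows of 250 bases before to 50 after each start were found for all 8 genes, in 11 windows, on GRCh38.p14. TXNIP lies at chr1:145992435-145996600 on the minus strand, and the stretch printed is chr1:145996640-145996739, positions -160 to -61 with -1 the last base before the start. ARRDC4 lies at chr15:97960698-97973838 on the plus strand, and its stretch is chr15:97960473-97960652, positions -230 to -51. Both are intergenic sequence just upstream of the first exon, read 5′ to 3′ along the gene, and capitals mark the motif matches listed after them.
TXNIP: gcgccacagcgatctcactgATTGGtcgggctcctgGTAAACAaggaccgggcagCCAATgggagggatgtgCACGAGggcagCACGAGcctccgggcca
ARRDC4: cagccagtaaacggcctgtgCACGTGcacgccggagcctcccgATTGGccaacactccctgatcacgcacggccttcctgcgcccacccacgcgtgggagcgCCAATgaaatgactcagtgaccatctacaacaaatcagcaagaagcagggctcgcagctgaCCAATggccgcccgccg

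The TXNIP window held, from position -88, a pair of E-box-like boxes with the spacing of a carbohydrate response element, searched on both strands as CACGNG followed after 5 bases by CNCGNG. That pair was found in 1 of the 11 member windows and in 0.501% of all 35116 promoter windows. TXNIP also held a forkhead site, TGTTTAC, on the opposite strand from position -124, where 3.42% of all windows hold one, and a second forkhead match lay at position -29 of the downstream start of ARRDC3. The ARRDC4 window held no such pair but a single E-box, CACGTG, at position -210, a motif of 7.26% of all windows. CCAAT boxes, the letters bound by NF-Y, were found at 2 places in TXNIP and at 3 in ARRDC4, and 6 of the 11 member windows held at least 1, as did 34.6% of all windows. The windows of MLXIPL and TXN matched none of the 4 searches, which says only that these letters are not in these windows.

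**Figure D1:**
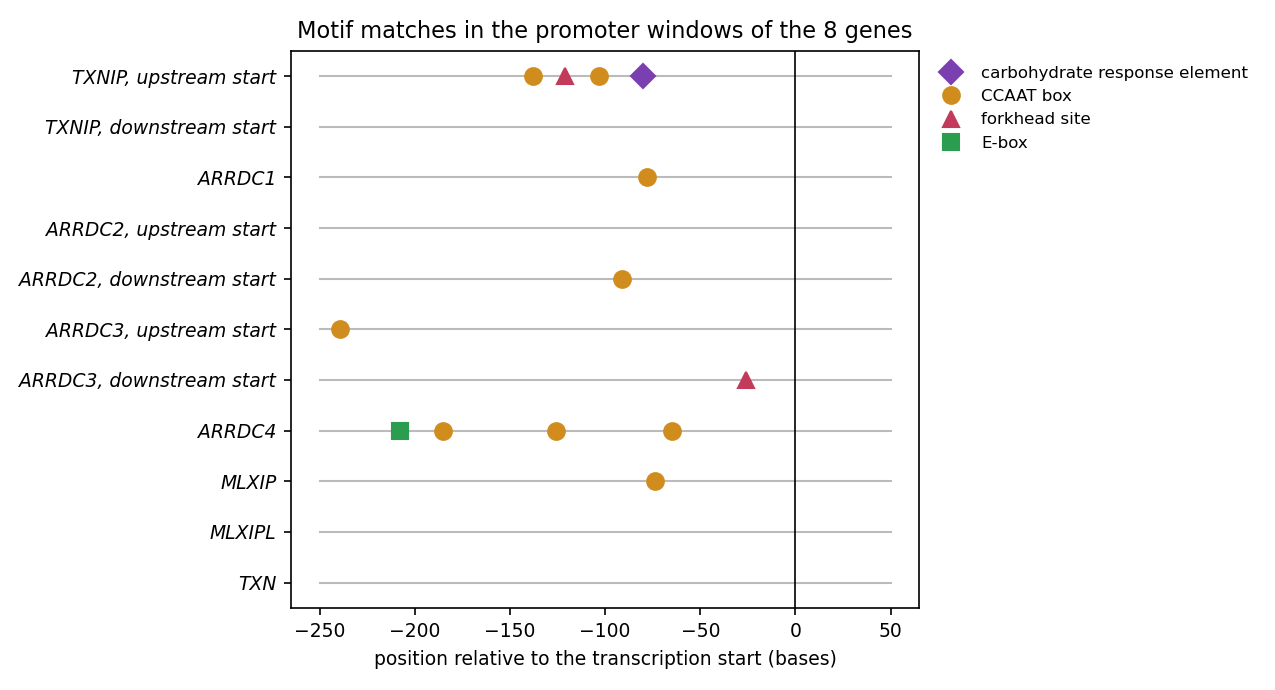
Motif matches in the 11 RefSeq promoter windows of the 8 genes. The x axis is the position in bases relative to the transcription start, each grey line is one window of 250 bases before to 50 after the start, and symbols mark the middle of a match on either strand. The carbohydrate response element match sits in the TXNIP window alone among these genes, from position -88.

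Per length, TXN was the most abundant member in gCtl, at 153 ± 66.5 transcripts per 1000000 (TPM), given as mean ± SD (n = 5). MLXIP at 12.7 ± 0.612 TPM and TXNIP at 12.5 ± 3.14 TPM followed, and their ranges overlapped. ARRDC3 at 7.14 ± 1.38 TPM and ARRDC1 at 5.94 ± 2.17 TPM overlapped in the same way, and MLXIPL at 2.41 ± 1.16 TPM overlapped with ARRDC2 at 1.33 ± 0.257. ARRDC4 was lowest at 0.162 ± 0.0934 TPM, and its highest gCtl library, at 0.276, lay below the lowest ARRDC2 library, at 0.988. In the guide libraries TXNIP took the second place, at 32.3 ± 5.30 TPM in g1 (n = 3) and 24.4 ± 5.01 TPM in g2 (n = 2), with no library of either guide overlapping MLXIP, whose highest library stood at 16.7 TPM. QuantSeq reads come from the 3′ end of a transcript, so that a level per length depends on which transcript length the estimate uses.

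TXNIP was chosen with its direction in these libraries known. In CPM scaled by the trimmed mean of M values (TMM), its level was 24.5, 23.3, 29.8, 20.9 and 39.6 in the gCtl libraries, 76.5, 56.6 and 81.3 in g1, and 69.6 and 51.2 in g2. Every guide library exceeded every gCtl library, and the g1 and g2 libraries overlapped. The group means were 27.6 ± 7.43 CPM in gCtl, 71.5 ± 13.1 in g1 and 60.4 ± 13.0 in g2 (SD, n = 5, 3 and 2), and the fitted log2 differences were 1.37 (SE 0.20, 2.58-fold) for g1 and 1.12 (SE 0.22, 2.17-fold) for g2 against gCtl. The difference of g2 from g1 was -0.25 (SE 0.25) on the log2 scale. Of the TXNIP counts, 99.5% were assigned to a single transcript, TXNIP-001, which runs to the annotated end of the gene, so the level does not rest on a split between transcripts.

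The size of the TXNIP difference depended on the reference. Relative to GAPDH, a glycolytic enzyme often used as a reference, the log2 difference was 3.04 in g1 and 2.70 in g2. GAPDH itself ranged from 163 to 422 RPM in gCtl, 89.5 to 105 in g1 and 68.3 to 134 in g2, with edgeR log2 fold changes of -1.72 (adjusted p = 0.000719) and -1.54 (adjusted p = 0.00309). TXNIP with g2 no longer met the call when it was tested against a fold change of 1.5, where its estimate stayed at 1.12.

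**Figure D2:**
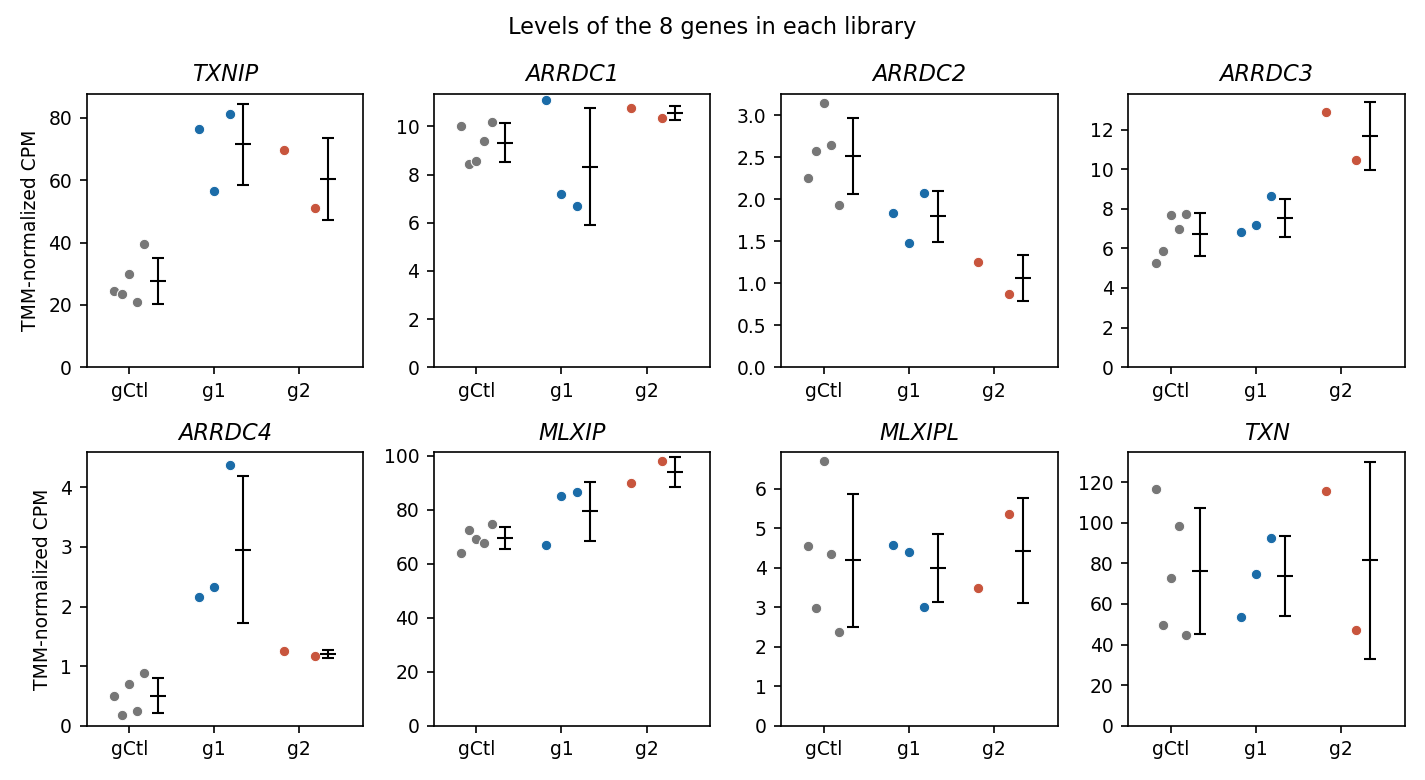
TMM-normalized CPM of the 8 genes in each library. Each panel is 1 gene with its own y axis from 0, points are libraries of gCtl (n = 5), g1 (n = 3) and g2 (n = 2), and the bar beside each group is the mean with 1 SD. TXNIP lies at 20.9 to 39.6 in gCtl and at 51.2 to 81.3 in the guide libraries, and TXN spreads from 44.5 to 117 within gCtl.

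Of the 6 members that passed the expression filter, 1 (TXNIP) met the call rule in g1, where 16.7% of the 11640 genes tested did. A gene was called where its adjusted p was 0.05 or less and its fold change 1.5 or more. In g2 it was 2 of 6 (TXNIP and ARRDC3) beside 23.7% of all genes, and in g2 against g1 it was 0 of 6 beside 4.97%. With both guides together it was 1 of 6 (TXNIP) beside 19.2%. The libraries of both guides did not overlap gCtl for 1 of these 6 members, as for 15.4% of all genes tested. For g1 against gCtl it was 1 of 6 beside 26.5%, and for g2 against gCtl 4 of 6 beside 38%. For g2 against g1 it was 2 of 6 beside 32.9%. These members entered the set with such differences known, and nothing is read from the counts.

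ARRDC4 was the rarest member, with 88 counts in all, and lay below the filter. It held 2, 1, 4, 1 and 5 counts in the gCtl libraries, 13, 11 and 36 in g1, and 7 and 8 in g2. Every guide library had more than every gCtl library, also after scaling to library size, and the g1 libraries, at 2.17 to 4.38 CPM, lay above the g2 libraries, at 1.16 and 1.26. Pooled, the 60 counts in g1 against 13 in gCtl gave a ratio of RPM of 5.86 (exact 95% interval 3.18 to 11.6), and the 15 counts in g2 gave 2.08 (0.924 to 4.75). These intervals cover counting error only. In a separate fit that took every biotype from 10 counts upward, its log2 difference was 2.47 (SE 0.57) in g1 and 1.14 (SE 0.69) in g2, and the difference of g2 from g1 was -1.33 (SE 0.67). With both guides together it was 2.07 (SE 0.56). Leaving out each library in turn gave 2.04 (without g1 replicate 3) to 2.753 in g1 and 0.92 to 1.44 in g2.

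ARRDC3, an alpha-arrestin linked to beta-adrenergic receptor trafficking and to energy balance, was higher with g2. Its level was 5.25, 5.88, 7.67, 6.98 and 7.74 CPM in gCtl, 6.83, 7.18 and 8.65 in g1, and 12.9 and 10.5 in g2. Both g2 libraries lay above all others, whereas g1 overlapped gCtl. The log2 difference from gCtl was 0.79 (SE 0.26) in g2 and 0.17 (SE 0.24) in g1, and that of g2 from g1 was 0.62 (SE 0.28). Leaving out a library moved the g2 value between 0.63 (without g2 replicate 1) and 0.94 (without g2 replicate 2). The call of ARRDC3 in g2 was kept under 12 of 23 alternatives and lost under the others, among them library totals, at 0.63. Per length the gap nearly closed, at 0.17 on log2(TPM + 1) in g2, and turned to -0.33 in g1. The main coding transcript, ARRDC3-001 of 4188 bases, took 58.6% of the ARRDC3 counts in gCtl, 76.8% in g1 and 77.4% in g2, and the short retained-intron transcript ARRDC3-005 took 29.1%, 14.6% and 14.4%. The antisense gene ARRDC3-AS1 shares 3011 bases with the start of ARRDC3 and held 76.2 counts in all, 45.4 of them in gCtl.

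ARRDC2 went the other way and was lowest with g2. It held 111 counts, all on ARRDC2-002, and lay below the filter. Its level was 2.25, 2.57, 3.14, 2.65 and 1.94 CPM in gCtl, 1.83, 1.48 and 2.07 in g1, and 1.26 and 0.872 in g2. The g2 libraries lay below all others, and g1 overlapped gCtl through a single pair of libraries. The log2 difference from gCtl was -1.30 (SE 0.55) in g2 and -0.50 (SE 0.44) in g1, and neither met the call. By pooled counts, g2 stood at 0.372 times gCtl (exact 95% interval 0.188 to 0.683, counting error only), from 13 counts against 63.

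ARRDC1, the relative known for driving the budding of small vesicles at the plasma membrane, did not meet the call rule with either guide. It averaged 9.33 ± 0.814 CPM in gCtl, 8.33 ± 2.42 in g1 and 10.6 ± 0.292 in g2, with log2 differences of -0.16 (SE 0.23) and 0.18 (SE 0.26). The g1 libraries spanned the gCtl range, and both g2 libraries, at 10.3 and 10.8, lay just above the highest gCtl library, at 10.2. Most ARRDC1 counts, 85.5%, were assigned to ARRDC1-002, a processed transcript of 3185 bases without a coding annotation, and 5.4% to the coding ARRDC1-001. The 3′ ends of ARRDC1 (chr9:137605654-137615360, plus strand) and of ARRDC1-AS1 (chr9:137615332-137618906, minus strand) share 29 bases, and ARRDC1-AS1 held 225 counts. The strand setting of the counting is not given in the sources used here, so reads at this shared end are uncertain between the pair.

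**Figure D3:**
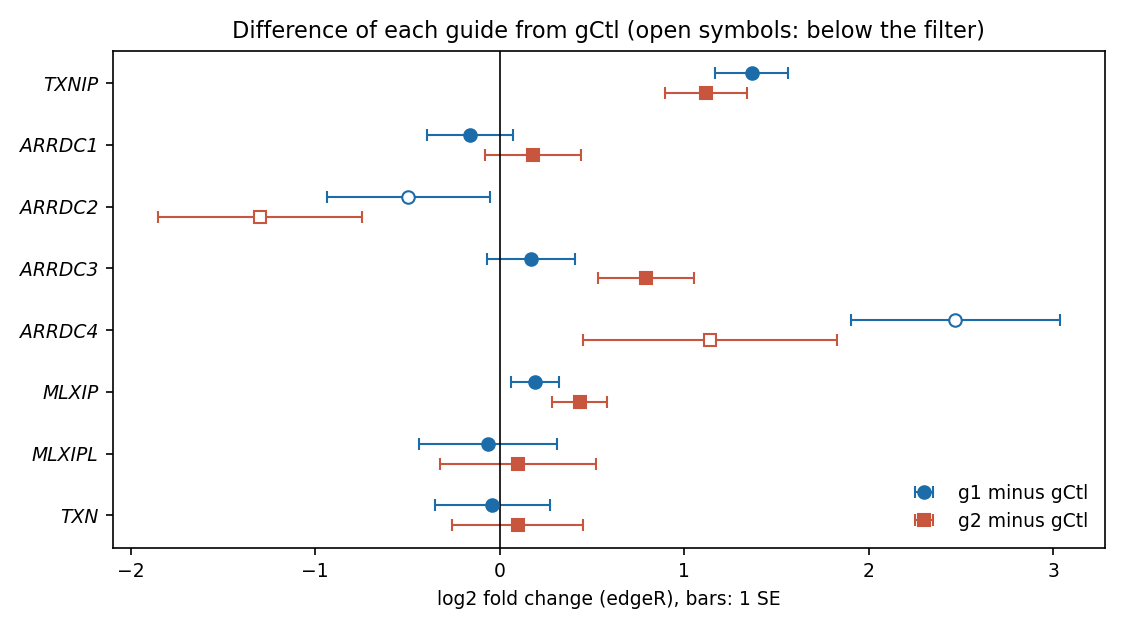
Fitted log2 fold change of each of the 8 genes for g1 minus gCtl (circles) and g2 minus gCtl (squares) on the x axis, with bars of 1 SE. Open symbols are ARRDC2 and ARRDC4, which lay below the filter and come from the fit over all biotypes. TXNIP lies at 1.37 and 1.12, ARRDC4 at 2.47 and 1.14, and ARRDC2 at -0.50 and -1.30.

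Neither glucose sensor met the call rule. MLXIP, which encodes MondoA, stood at 63.9, 72.3, 69.3, 67.7 and 74.6 CPM in gCtl, 66.8, 85.0 and 86.5 in g1, and 90.1 and 98.0 in g2. Both g2 libraries exceeded all others, and g1 overlapped gCtl. Of all genes tested, 38% did not overlap between g2 and gCtl. The log2 differences were 0.43 (SE 0.15) in g2, which is under the 1.5-fold minimum, and 0.19 (SE 0.13) in g1. MLXIP-001, the coding transcript, took 92.7% of the counts.

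MLXIPL, which encodes ChREBP and is best known from liver, fat and intestine, was rare, at 2.36 to 6.71 CPM in gCtl, 3.01 to 4.57 in g1 and 3.49 and 5.36 in g2. The groups overlapped throughout, and the log2 differences were -0.06 (SE 0.38) and 0.10 (SE 0.42), with a sign that turned in 3 of 23 alternatives for g1 and 6 of 23 for g2. Its counts fell almost wholly on MLXIPL-005, annotated as a retained intron (55.4%), and MLXIPL-004, annotated for nonsense-mediated decay (43.7%). Few MLXIPL reads were thus assigned to a coding transcript.

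TXN, the small redox protein that TXNIP binds, spread widely within groups. It stood at 117, 49.6, 72.6, 98.2 and 44.5 CPM in gCtl, 53.7, 74.9 and 92.7 in g1, and 115.8 and 47.1 in g2. The 2 g2 libraries differed from each other nearly as much as the extremes of gCtl. The log2 differences were -0.04 (SE 0.31) and 0.10 (SE 0.36), and without g2 replicate 1 the latter was -0.69 and without g2 replicate 2 it was 0.62. Both main TXN transcripts, TXN-002 (83.5% of counts) and TXN-001 (16.4%), are coding and end at the same base, and of 7 processed copies named TXNP only TXNP6 was counted, with 6 counts.

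The genes whose pattern was most like TXNIP were ranked over the 10 libraries by Pearson's r of log2(CPM + 1), as a description across libraries that share their groups and depth. The highest were PLAG1 (r = 0.981), EPC2 (0.977), FZD5 (0.973), C5orf42 (0.973) and KLF5 (0.966). KLF5, a transcription factor of intestinal crypts, averaged 136 CPM in gCtl, 313 in g1 and 278 in g2. Within groups, after the group means were subtracted, they were PKIB (0.976), RIMKLA (0.974), SUPT7L (0.961), ATXN7L3 (0.960) and TMEM43 (0.960). Among the members, ARRDC3 had r = 0.599 and 0.624 by these 2 measures, MLXIP 0.603 and 0.039, MLXIPL -0.140 and -0.438, ARRDC1 -0.069 and 0.240, and TXN -0.040 and -0.160.

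The wider circuit was read from 6 lists of 80 genes, none of them a member, of which 69 were tested by edgeR's quasi-likelihood test with Benjamini-Hochberg adjustment over all genes. The lists were chosen with earlier results of these data known. The p-values and shares called for their genes, here and below, are therefore not independent support. In g1, 15 were called, 5 higher and 10 lower, or 21.7% beside 16.7% of all genes. In g2, 20 were called, 4 higher and 16 lower, or 29.0% beside 23.7%. With both guides together, 18 were called, 4 higher and 14 lower, or 26.1% beside 19.2%, and in g2 against g1 it was 7, 1 higher and 6 lower, or 10.1% beside 4.97%. The g1 and g2 comparisons share the gCtl libraries. No call changed its sign under any alternative, and 8 of the 15, 9 of the 20, 12 of the 18 and 3 of the 7 were kept whichever library was left out.

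The thioredoxin system held the lower peroxiredoxins. These enzymes reduce peroxides, and most of them, though not PRDX6, are recycled by thioredoxins. With both guides together all 6 fell: PRDX2 from 15.4 ± 4.40 CPM (n = 5) to 3.59 ± 0.755 (n = 5), a log2 fold change of -2.08 (adjusted p = 0.000132), PRDX5 by 1.31, PRDX3 by 1.15, PRDX4 by 1.04, PRDX1 by 0.80 and PRDX6 by 0.61. In g1 all 6 were called, and in g2 PRDX1, PRDX2, PRDX4 and PRDX5 were, while PRDX3 stood at -0.72 (adjusted p = 0.182) and PRDX6 at -0.56 (adjusted p = 0.0887). PRDX6 lost its call for both guides together in 6 of 10 omissions (gCtl replicates 1, 2 and 4, g1 replicates 1 and 3, or g2 replicate 2, at -0.58 to -0.53), its g1 call was lost in 5 of 10 (gCtl replicates 1, 2 and 4 or g1 replicates 1 and 3, at -0.60 to -0.54), and PRDX3 lost its call for both guides together without gCtl replicate 1, at -0.93. The g2 calls of PRDX1, PRDX4 and PRDX5 were each lost without g2 replicate 2, where PRDX1 stood at -0.43. Without gCtl replicate 2 those of PRDX4 and PRDX5 were lost too, and that of PRDX4 was also lost without gCtl replicate 3.

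**Figure D4:**
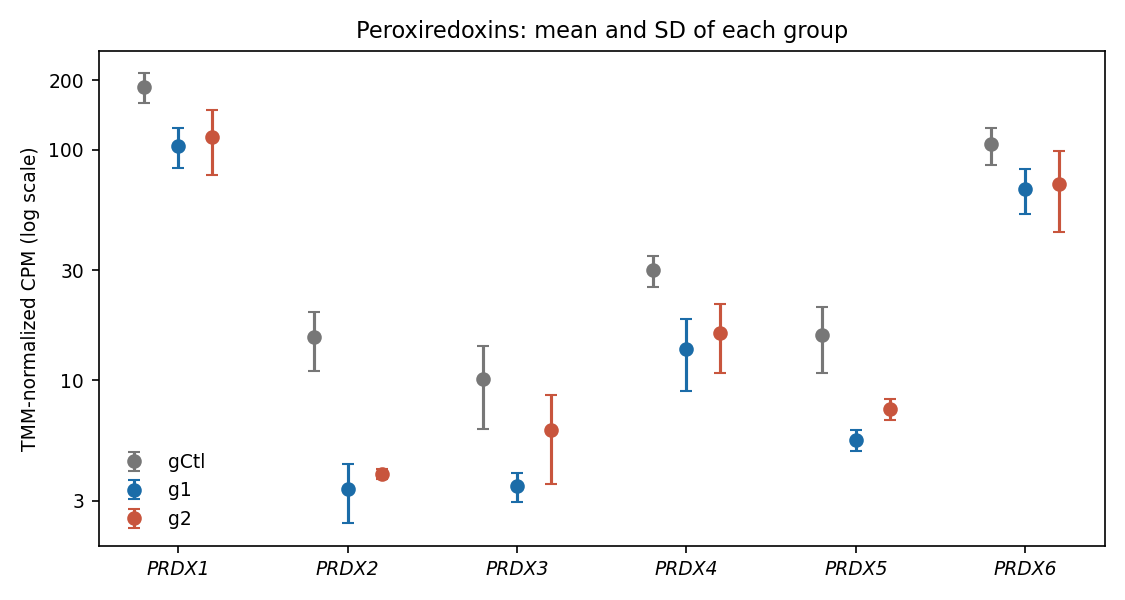
TMM-normalized CPM of the 6 peroxiredoxin genes on a log scale, as the mean with 1 SD of gCtl (grey, n = 5), g1 (blue, n = 3) and g2 (red, n = 2). PRDX2 falls from 15.4 in gCtl to 3.37 in g1 and 3.93 in g2, and PRDX1 from 188 to 104 and 113.

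Among the other 12 genes of this list, 3 of the 4 methionine sulfoxide reductases were called with 1 guide. MSRB1 fell with g2, from 16.3 ± 0.537 to 6.02 ± 1.12 CPM (log2 fold change -1.44, adjusted p = 0.000473), and stood at 16.9 ± 0.892 in g1. MSRA fell with g2 by 2.10 (adjusted p = 0.0462), a call lost in 5 of 10 omissions (gCtl replicates 1, 2 and 4, g1 replicate 1 or g2 replicate 2, at -2.19 to -1.35). MSRB2, named after its values were seen as the 1 gene of the list called higher, rose in g1 by 0.64 (adjusted p = 0.0131). That call was lost without gCtl replicate 3 or g1 replicate 1, at 0.48 to 0.57. TXNRD1, a thioredoxin reductase, stood at 0.52 in g1 (adjusted p = 0.0246), under the 1.5-fold minimum, and at 0.31 in g2 (adjusted p = 0.207). By the test of g2 against g1, MSRB1 differed between the guides, and MSRA and MSRB2 did not pass (adjusted p = 0.146 for each). The median log2 difference of the 18 genes was -0.04 in g1 and -0.67 in g2, beside 0.013 and -0.002 over all genes tested.

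Of the genes for glucose uptake and its first phosphorylation, 11 of 16 were tested. SLC2A3, the high-affinity glucose transporter GLUT3, fell from 280 ± 29.9 CPM in gCtl to 136 ± 27.4 in g1 and 55.3 ± 9.23 in g2, with log2 fold changes of -1.04 (adjusted p = 0.000566) and -2.34 (adjusted p = 4.47e-06), and g2 was lower than g1 by a tested difference of -1.30 (adjusted p = 0.00215). SLC2A3 kept these calls whichever library was left out. SLC2A8, an intracellular glucose and fructose transporter, rose in g1 by 0.77 (adjusted p = 0.0136), a call lost without g1 replicate 3 at 0.57, stood at -0.62 in g2 (adjusted p = 0.0704), and was lower in g2 than in g1 by a difference of -1.38 (adjusted p = 0.00722). SLC2A1, the widely expressed transporter GLUT1 whose removal from the surface TXNIP is known for, stood at 0.04 and -0.45 and was not called.

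Of the genes known to be raised through ChREBP or MondoA, 15 of 18 were tested, and 4 fell and 1 rose with both guides together. Their median log2 difference was -0.01 in g1 and -0.55 in g2. FASN, the fatty acid synthase, stood at 161 ± 21.1 CPM in gCtl, 120 ± 19.6 in g1 and 70.9 ± 1.33 in g2, and fell by 0.69 with both guides together (adjusted p = 0.0161), while in g1 alone it was not called (adjusted p = 0.0556). ACLY fell by 0.76 and ACACA by 0.62 with both guides together, the latter lost without gCtl replicate 5, g1 replicate 3 or g2 replicate 2, at -0.58 to -0.56. Of the other lipid enzymes of the list, ACACB stood at -0.01 in g1 and -0.14 in g2 and ELOVL6 at 0.24 and 0.55, not called. SCD fell by 0.91 with g2 (adjusted p = 0.0495; 0.0594 with both guides together), a call lost in 7 of 10 omissions (gCtl replicates 1 to 4, g1 replicates 1 and 2 or g2 replicate 2, at -0.91 to -0.35). The fructose transporter gene SLC2A5 fell by 1.18 with both guides together (adjusted p = 0.0419), lost in 6 of 10 omissions (gCtl replicates 2 to 5, g1 replicate 3 or g2 replicate 1, at -1.26 to -0.90). PKLR, the textbook ChREBP target, held 4 counts in all and was not tested.

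**Figure D5:**
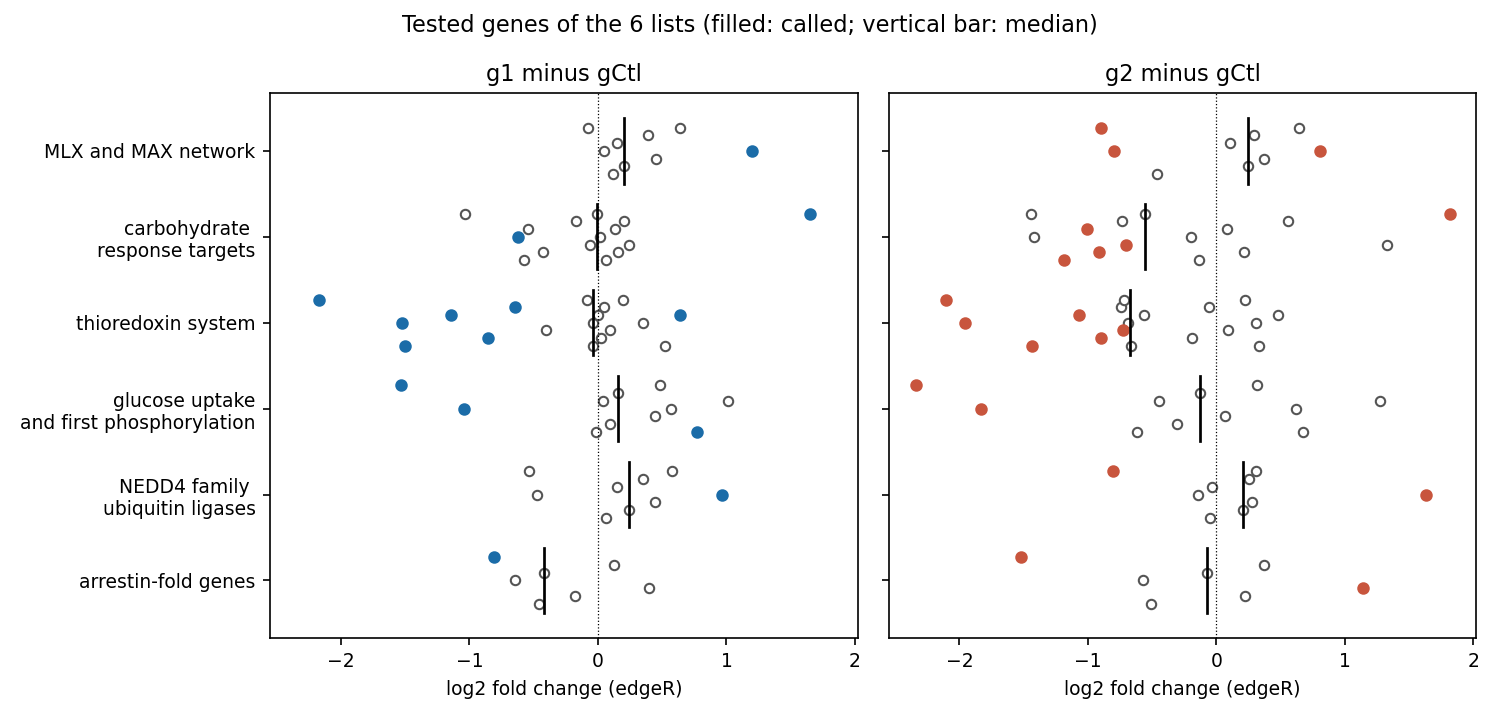
Fitted log2 fold change of the 69 tested genes of the 6 lists, with g1 minus gCtl at left and g2 minus gCtl at right. Each point is a gene, filled where it was called (15 genes at left, 20 at right), and the vertical bar is the median of the list. The thioredoxin list has a median of -0.04 with g1 and -0.67 with g2, and its called genes lie to the left of 0 apart from MSRB2 with g1.

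In the MLX and MAX network, which holds MLX, MAX and factors that pair with either or both of them, 9 of 10 genes were tested. MLX, the obligate partner of MLXIP and MLXIPL, fell with g2 from 45.0 ± 5.44 to 24.1 ± 0.349 CPM (log2 fold change -0.90, adjusted p = 0.0039) and stood at 42.3 ± 8.98 in g1. MAX, the partner of MYC, fell with g2 by 0.79 (adjusted p = 0.00747) and stood at 0.20 in g1. Of the repressors of the network, MNT rose with g2 by 0.81 (adjusted p = 0.00666), lost without g2 replicate 2 at 0.54, and MXD4 rose with g1 by 1.20 (adjusted p = 0.0021). MNT also rose with both guides together by 0.60 and MXD4 by 1.003, and the call of MNT was lost without gCtl replicate 5 or g2 replicate 2, at 0.46 to 0.52, and under 6 of 12 other settings, among them library totals, all biotypes and each limma fit.

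Of the 9 NEDD4 family ligases, which alpha-arrestins recruit, HECW2 rose in g1 by 0.97 and in g2 by 1.63 (adjusted p = 0.0311 and 0.00209), and WWP2 fell in g2 by 0.80 (adjusted p = 0.0257), lost without g2 replicate 1 at -0.41. The g1 call of HECW2 was lost in 5 of 10 omissions (gCtl replicates 1, 2 and 5, g1 replicates 2 and 3), at 0.84 to 0.94. WWP2 also fell with both guides together by 0.60, lost in 7 of 10 omissions (gCtl replicates 2 to 5, g1 replicates 2 and 3 or g2 replicate 1, at -0.61 to -0.47). The other 7, among them NEDD4, NEDD4L and ITCH, were not called. Of the other arrestin-fold genes 7 of 9 were tested, and VPS26B, a subunit of the retromer, fell in g1 by 0.81 and in g2 by 1.52, the g1 call being lost without g1 replicate 1 at -0.63. SAG, the arrestin of rod photoreceptors, rose in g2 by 1.14 (adjusted p = 0.00813), lost without g2 replicate 2 at 0.71.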

How the data were processed

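QuantSeq 3′ RNA-seq libraries of 5 gCtl, 3 g1 and 2 g2 samples were analysed. The authors pseudoaligned the reads to GENCODE transcripts with Kallisto (version 42.5 per the labels) and deposited estimated counts per transcript, not normalized or pooled. Here they were summed over 199169 transcripts to 60554 genes and rounded. Protein-coding genes with RPM over 3 in at least 20% of libraries (11640) were fitted with edgeR 4.0.16 in R 4.3.3 (TMM, glmQLFTest, Benjamini-Hochberg) and called at adjusted p of at most 0.05 and 1.5-fold. One fit held 3 groups, a second both guides together. ARRDC2 and ARRDC4 were read from a fit over all biotypes with at least 10 counts. TPM was computed here. Simulated 3-fold changes in 200 of 11640 genes were recovered at 85% for g1 and 77.5% for g2 against gCtl. Alternatives were DESeq2 1.42.0, limma 3.58.1 on log2 values (pseudocounts 1 and 0.1), other scalings and filters, and omission of each library. Members and lists were chosen with earlier results of these data known. Named were all members, called list genes (where a list had over 6, the 3 largest each way), and the 5 genes most like TXNIP by each measure. Gene positions are from GENCODE on GRCh38 and promoters from RefSeq. Some genes of the lists are counted but not reported by name here. Protein sequences were not used here.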

Additional observations from a re-analysis of the deposited data

Results flagged for a closer look

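For 7 named genes of the lists the responses to the guides differed by a test of g2 against g1 in the edgeR fit. The log2 difference of g2 from g1 was -1.49 for MSRB1 (adjusted p = 0.00227), -1.30 for SLC2A3 (adjusted p = 0.00215), -1.38 for SLC2A8 (adjusted p = 0.00722), -0.995 for MAX (adjusted p = 0.011), -0.82 for MLX (adjusted p = 0.033), -0.75 for FASN (adjusted p = 0.0342) and 0.79 for VPS26A (adjusted p = 0.0301). In each case both g2 libraries lay outside the range of the g1 libraries, as they did for 32.9% of all genes tested, and nothing is read from it. MSRB1, SLC2A3 and SLC2A8 kept the call whichever library was left out. MAX lost it without g1 replicate 1, at -0.84. MLX lost it in 6 of 10 omissions (gCtl replicates 3 and 4, g1 replicates 1 and 3 or either g2 library), at -0.89 to -0.61. FASN lost it in 6 of 10 (gCtl replicates 2 and 4, g1 replicates 1 and 2 or either g2 library), at -0.75 to -0.64, and VPS26A in 5 of 10 (any g1 or g2 library), at 0.73 to 0.88. When only the libraries compared were fitted, MAX, MLX, FASN and VPS26A were not called, and VPS26A was lost under 7 of 13 other settings in all, among them library totals, all biotypes and each limma fit. The g2 group held 2 libraries, whose share of mitochondrial counts, 12.0% and 16.8%, was below that of every other library, and its part in these differences was not tested. No gCtl library stood apart from the other 4 for any of the 8 members by Dixon's gap test.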

How the results depend on the processing

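TXNIP kept its direction under every alternative run. Leaving out each library in turn gave log2 differences of 1.24 to 1.52 for g1, 0.88 to 1.33 for g2, 1.18 to 1.43 for both guides together and -0.48 to -0.02 for g2 against g1, and relative to GAPDH, whose own level differed, 3.04, 2.70 and 2.90 for the first 3. Tested against a fold change of 1.5, g2 (1.12) was not called. Genes called in g1, g2, g2 against g1 and both guides together were then 506, 802, 92 and 488 (from 1947, 2756, 579 and 2232), list genes 5, 7, 2 and 4, and members in g2 0. Fitting only the libraries compared gave 159 genes and 3 list genes for g2 against g1. Members called were 2 in g1 and with both guides under filterByExpr and with all biotypes, where ARRDC4 enters, under filterByExpr by its counts in g1 alone, and 1 in g2 under library totals, all biotypes and limma on log2(RPM + 1), log2(RPM + 0.1) or log2(TPM + 1). Omitting a library left 1258 (without g1 replicate 3) to 2260 genes in g1, 1503 (without g2 replicate 2) to 3127 in g2, and 266 (without g1 replicate 1; 313 without g1 replicate 2) to 865 in g2 against g1, list genes of 3 (without g1 replicate 1; 4 without g2 replicate 2) to 8 in g2 against g1, and members of 1 to 2 in g2. The omissions for ARRDC2 and ARRDC4 were added after the data were seen. With 1 g2 library left, it was assumed to vary like the others. The causes were not tested beyond what each setting changes. Scaling by library totals moved the median of all genes by -0.16 in g2 and raised the share of lower calls in g2 to 73.3%, from 1514 of 2756 genes, in g2 against g1 to 83.4%, from 398 of 579, and with both guides together to 69.4%, from 1284 of 2232. No paired analysis was possible because the labels give no replicate numbers. Depth limits ARRDC2 and ARRDC4, with 111 and 88 counts.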
